A study of Mus musculus with 38 samples.

Results

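The Wnt pathway genes of neural stem/progenitor cells (NSPCs) were taken by symbol: all Wnt, Frizzled (Fzd), secreted Frizzled-related (Sfrp) and Dickkopf (Dkk) genes that carry a number, and Lrp5, Lrp6, Lgr4 to Lgr6, Lef1, the Tcf7 genes, Axin1 and Axin2. This rule found 48 of the 25965 genes of the RNA table, namely 19 Wnt ligands, 10 Frizzled receptors, 2 LRP coreceptors, 3 LGR receptors, 4 Sfrp and 4 Dkk antagonists, 4 TCF/LEF transcription factors and 2 Axins. In the chromatin table it found the same number of genes, with 121 of 72923 promoter windows. The cells had been grown as nonadherent neurospheres from SVZ tissue (subventricular zone, lining the lateral ventricles) of C57BL/6JBabr mice, young adult at 3 months and aged at 18 months, 3 derivations for each age, each a pool of animals, and from 1 young adult and 1 aged C57BL/10 derivation. RNA-seq covered all 8 derivations, and bisulphite (BS), oxidative bisulphite (oxBS), H3K4me3, H3K27me3 and Input libraries covered the 3 C57BL/6JBabr derivations of each age. These are cultured, expanded cells, not freshly sorted stem cells, and in bulk samples fewer cells of a type and less RNA per cell cannot be told apart.

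Wnt ligands are lipid-modified secreted proteins that bind a Frizzled receptor together with an LRP coreceptor. In the canonical branch this takes Axin away from the complex that degrades beta-catenin, which then acts on target genes with TCF/LEF factors. Sfrp proteins bind Wnts outside the cell, Dkk1, Dkk2 and Dkk4 act on the LRP coreceptors, and LGR receptors bind R-spondins, which raise the amount of Frizzled at the surface. In the adult SVZ, Wnt signalling is known as one of the cues that act on stem cell proliferation and neuron production.

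The marks described below were read over promoters that differ widely in their density of CpG dinucleotides. RefSeq promoter sequences (GRCm38.p6, 250 bases before and 50 after a gene's start) were matched by symbol for 32 of the 48 genes. The sequence nearest the window used for the marks was taken, and 28 started within 500 bp of that window's centre. Axin2 (-2832 bp), Tcf7l2 (-1035), Tcf7l1 (-730) and Wnt16 (-634) started further upstream. The 32 promoters had a median of 28 CpGs in 300 bases, against 7 over all 32851 promoters of the table. Their median GC content was 70.0% against 52.7%. Shown here are the 250 bases before the start of 4 genes that stand for the patterns found: Wnt7a, which carried H3K4me3 and was expressed, Wnt3a and Dkk1, which carried H3K4me3 and H3K27me3 in young adult cells, and Wnt8b, which carried H3K27me3 alone. They are written 5′ to 3′ on the gene's strand, with every CpG in capitals. The Wnt7a stretch (chr6:91411354-91411603, minus strand) held 34 CpGs, the Wnt3a stretch (chr11:59290752-59291001, minus strand) 41, the Dkk1 stretch (chr19:30549497-30549746, minus strand) 6 and the Wnt8b stretch (chr19:44493222-44493471, plus strand) 5.
Wnt7a: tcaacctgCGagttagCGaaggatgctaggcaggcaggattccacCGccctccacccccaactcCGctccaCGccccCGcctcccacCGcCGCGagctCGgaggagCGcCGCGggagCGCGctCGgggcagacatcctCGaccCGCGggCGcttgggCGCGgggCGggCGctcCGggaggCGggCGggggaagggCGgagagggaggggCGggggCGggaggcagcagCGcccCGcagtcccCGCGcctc
Wnt3a: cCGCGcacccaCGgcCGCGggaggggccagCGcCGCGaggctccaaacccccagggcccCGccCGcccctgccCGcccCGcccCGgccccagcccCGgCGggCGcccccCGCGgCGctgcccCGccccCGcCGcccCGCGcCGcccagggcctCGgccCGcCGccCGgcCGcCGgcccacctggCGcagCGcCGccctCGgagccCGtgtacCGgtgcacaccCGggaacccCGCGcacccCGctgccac
Dkk1: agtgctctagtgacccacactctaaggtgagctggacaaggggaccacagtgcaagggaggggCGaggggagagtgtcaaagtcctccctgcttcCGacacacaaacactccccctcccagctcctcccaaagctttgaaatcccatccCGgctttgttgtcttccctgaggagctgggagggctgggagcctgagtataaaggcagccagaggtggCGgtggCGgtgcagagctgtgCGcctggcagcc
Wnt8b: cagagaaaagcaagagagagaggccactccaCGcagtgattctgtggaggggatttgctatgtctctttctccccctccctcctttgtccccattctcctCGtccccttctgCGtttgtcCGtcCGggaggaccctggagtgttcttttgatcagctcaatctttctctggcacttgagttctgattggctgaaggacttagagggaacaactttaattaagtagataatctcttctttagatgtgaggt

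The CpG-dense form was found at expressed and at silent Wnt genes. The fewest CpGs in 300 bases were at Wnt8b (6), Dkk1 (9), Wnt16 (10), Dkk2 (11) and Sfrp5 (15), all with at most 3 reads in any RNA library. The 12 matched promoters with H3K4me3 alone held a median of 33 CpGs in 300 bases (16 to 53), and the 19 with both marks a median of 26 (9 to 58). A search for the TCF/LEF core words CTTTGAA and also CTTTGAT, as well as CTTTGTA and also CTTTGTT, on both strands matched 4 of the 32 promoters (12.5%), against 16.9% of all promoters in the table. Dkk1 held CTTTGAA and CTTTGTT, 117 and 98 bases before the start, Fzd7 and Wnt11 held a word before the start on the opposite strand, and Wnt3 held one after it. The words are letter matches in a short window, and Axin2 and Lef1, known TCF targets in other cells, had none in it. The Axin2 sequence searched lies outside the window in which its marks were read.

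The RNA libraries held 16952486 to 41053972 reads, as recovered from the deposited values. Genes that mark NSPCs (Nes, Sox2, Pax6 and others) were at 1 RPKM or more in 8 of 8 cases, and so were 7 of 7 astrocyte, 3 of 4 ependymal, 4 of 8 oligodendrocyte lineage, 1 of 3 pericyte and 1 of 4 neuronal markers. Of the choroid plexus, endothelial and microglial markers 0 were. The pericyte marker at that level was Cspg4, also listed for the oligodendrocyte lineage, while Pdgfrb and Rgs5 lay under 0.1 RPKM. RPKM, the reads scaled to library size (RPM) and divided by the exon length in kilobases, was used to compare genes with each other, and log2 RPM to compare libraries. Over the 6 C57BL/6JBabr libraries 24 of the 48 genes had a mean of 1 RPKM or more, 16 lay under 0.1 RPKM, and 5 had no read in any of the 6 libraries. A count of 0 allows up to 0.0731 to 0.177 RPM, depending on the library. In all, 33 genes passed the filter for tests (log2 RPM averaging -2 or more), and Wnt4 and Lef1 were among the 15 that did not.

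**Figure D1:**
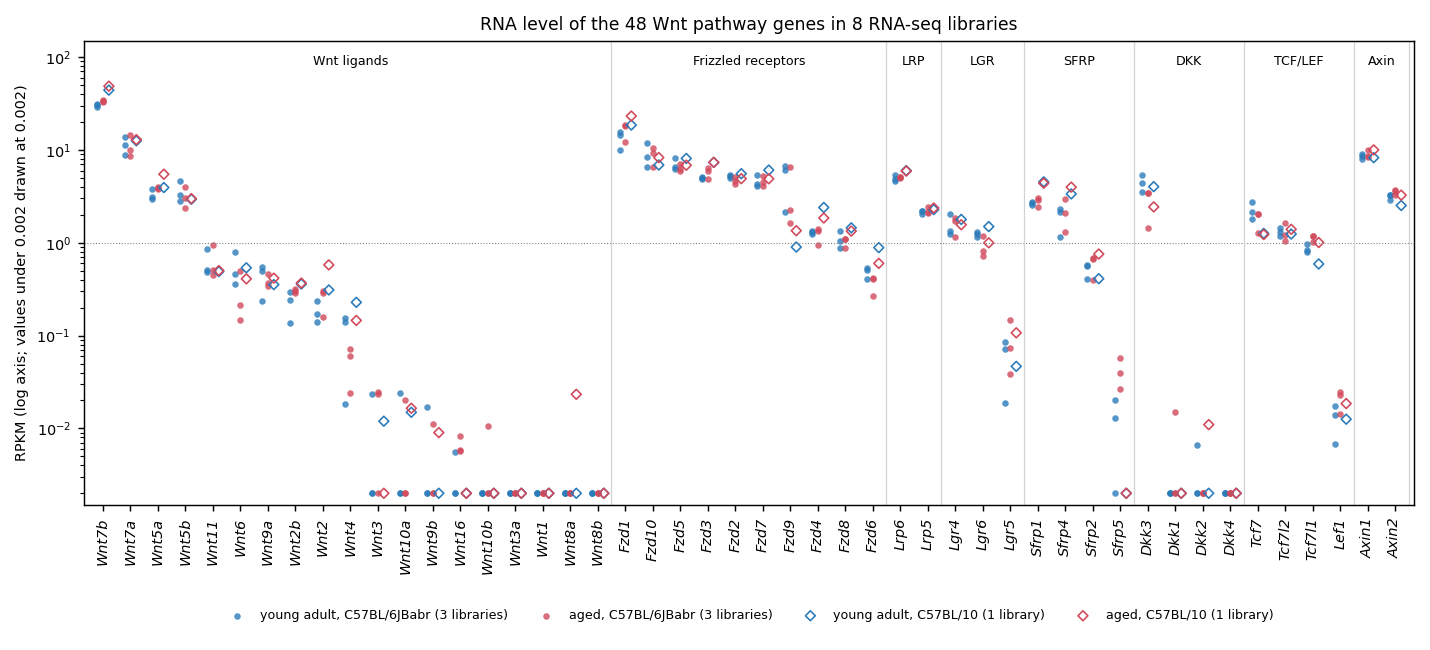
RPKM (log axis) of each of the 48 genes, grouped by role and ordered by mean, with 1 point per library (circles C57BL/6JBabr, diamonds C57BL/10, blue young adult, red aged). Wnt7b, at a mean of 31.9 RPKM, leads, while 10 of the 19 Wnt ligands lie under 0.1 RPKM.

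A few ligands made up most of the Wnt RNA. Wnt7b was the highest of the 48 genes at 31.9 RPKM ± 2.00 (SD, n = 6), followed among ligands by Wnt7a at 11.2 ± 2.49, Wnt5a at 3.58 ± 0.44 and Wnt5b at 3.34 ± 0.81, the last pair too close to be ordered. Wnt7a and Wnt7b are close relatives with roles in brain development and brain vessels, and Wnt5a and Wnt5b are known mostly for signalling that does not use beta-catenin. Wnt11, Wnt6, Wnt9a, Wnt2b and Wnt2 followed, between 0.22 and 0.62 RPKM. The other 10 ligands lay under 0.1 RPKM, and Wnt1, Wnt3a, Wnt8a and Wnt8b had no read in the 6 libraries. In the aged C57BL/10 library Wnt8a had 1 read.

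Receptors were expressed much more broadly than ligands. Of the 10 Frizzled genes 9 were at 1 RPKM or more, led by Fzd1 (14.8 RPKM ± 3.28), Fzd10 (8.88 ± 2.17) and Fzd5 (6.71 ± 0.81), and Fzd6 alone lay below (0.42 ± 0.10). Of the coreceptors, Lrp6 was at 4.99 RPKM ± 0.24 and Lrp5 at 2.19 ± 0.13. Lgr4 and Lgr6 were near 1 RPKM, at 1.56 ± 0.37 and 1.07 ± 0.24, whereas Lgr5, a marker of stem cells in the gut, was at 0.07 ± 0.04.

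Among antagonists and intracellular members, Dkk3 alone of its family was expressed. Dkk3, a divergent Dickkopf that does not bind LRP coreceptors like its relatives, was at 3.61 RPKM ± 1.30, and Dkk1, Dkk2 and Dkk4 had at most 1 read in any library. Sfrp1 was at 2.72 ± 0.22 and Sfrp4 at 1.99 ± 0.67, their ranges overlapping. Tcf7 was at 2.01 ± 0.48, Tcf7l2 at 1.31 ± 0.21 and Tcf7l1 at 1.00 ± 0.16, so that these overlap in part, while Lef1 reached at most 8 reads. Axin1, part of the destruction complex, was at 8.72 ± 0.66 and Axin2, a negative feedback target of the pathway, at 3.33 ± 0.30.

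With age, no Wnt pathway gene passed the test. The comparison asked which genes differ between young adult and aged NSPCs. With limma without a replicate block, 0 of the 33 genes tested and 0 of all 14858 genes (0%) had an adjusted p under 0.05. At the same threshold of a limma moderated test the paper reports differentially expressed genes between these ages. Why the counts differ was not tested. Of the 33, 1 had an unadjusted p under 0.05, against 1.74% of all genes, and edgeR's quasi-likelihood test on whole reads also called 0 genes, with 257 of all genes and 0 of the 33 under an unadjusted 0.05. Beside these comparisons, the summed astrocyte markers were at 1996 to 2344 RPM in young adult and at 1787 to 1985 RPM in aged libraries, without overlap. The other marker lists overlapped between ages, among them NSPC markers (7042 to 8300 and 6554 to 7963 RPM). These sums do not show which cells held the RNA. The paper reports many cell type genes at similar levels in both ages and reads the make-up of the neurospheres as unchanged. The part of the markers in any age difference was not tested. The median log2 fold change of the 33 genes was 0.03 and that of all genes 0.00149. Replicate numbers were taken to pair the RNA libraries, as same-numbered libraries deviated together in these same values (correlations 0.659, 0.179 and 0.724). The correlation was weakest for number 2, and no label states the pairing. The deviations within an age sum to 0, so these correlations are not independent of each other. With the number as a block limma called 74 genes (0.498%) and again 0 of the 33. In that blocked fit 12 of the 33 had an unadjusted p under 0.05, 6 higher and 6 lower in aged cells, against 8.27% of all genes. Higher were Axin2, Fzd1, Fzd3, Tcf7l1, Wnt5a and Wnt7b, and lower were Dkk3, Fzd6, Fzd9, Lgr6, Tcf7 and Wnt6. Without replicate number 3 the count was 6 of 33 (4.24% of all genes), in a fit that took the error from the trend over all genes.

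**Figure D2:**
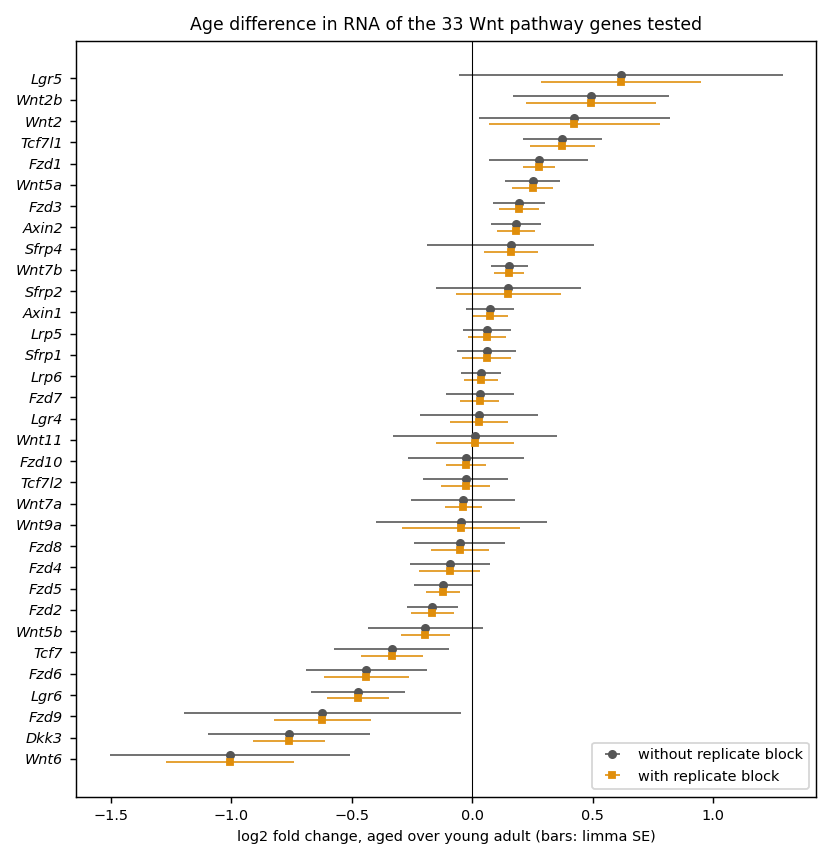
The log2 fold change between ages of the 33 genes tested, aged over young adult, with limma's standard error as bars, without (grey circles) and with (orange squares) the replicate block. Wnt6 and Dkk3 lie lowest and Lgr5 highest, and no gene passes the adjusted threshold in either fit.

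In the fit with the block, Dkk3 came closest to a call. Its log2 RPM was 3.90, 4.16 and 3.57 in the young adult libraries and 3.55, 3.53 and 2.27 in the aged ones, so every aged library lay below every young adult one, the third aged library by far the most. The log2 fold change was -0.76 with an SE of 0.34 and an adjusted p of 1.00 (-0.34 without the third aged library), and with the block the SE was 0.15 and the adjusted p 0.0532. With the block but without replicate number 3, whose aged library is the lowest, the fold change was -0.49 and the adjusted p 0.196, while without number 1 or number 2 Dkk3 was called. The fits without a number took the error from the trend over all genes, so their adjusted p is not comparable with 0.0532. The C57BL/10 pair, 1 library per age, was at 3.75 and 3.03. The marks of Dkk3 were read in 1 window only, and other starts of the gene were not covered. That window carried little H3K4me3 at either age (1.93 and 1.49 log2 RPM, Input 1.16 and 1.22).

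Axin2, Tcf7l1 and Wnt7b had all 3 aged libraries above all 3 young adult ones. The count of 4 of 33 genes with separate ages compares with 5.20% of all genes, and it splits into 3 higher (3.14% of all genes) and 1 lower (2.05%). Axin2 was at 3.99, 4.16 and 4.15 log2 RPM in young adult and at 4.18, 4.31 and 4.36 in aged cells, a log2 fold change of 0.18 with an SE of 0.10. The highest young adult and the lowest aged library are nearly equal. Tcf7l1, which mainly represses targets when beta-catenin is absent, was at 1.64, 1.72 and 1.94 and at 2.01, 2.22 and 2.2, a fold change of 0.37 with an SE of 0.16. Wnt7b was at 7.16, 7.25 and 7.21 and at 7.33, 7.37 and 7.39, a fold change of 0.15 with an SE of 0.08. The adjusted p of all 3 was 1.00.

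Lgr6, an R-spondin receptor, was the 1 gene with an unadjusted p under 0.05 in the unblocked fit. It was at 2.98, 3.15 and 3.10 log2 RPM in young adult and at 2.29, 3.02 and 2.49 in aged cells, so the second aged library overlapped the young adult range. The log2 fold change was -0.47 with an SE of 0.20 and an adjusted p of 1.00. Lgr6 was lower in the aged library of each replicate number and had an unadjusted p under 0.05 with limma's block too. It was called under the block with no filter, a fit that took the error from the trend over all genes. The C57BL/10 pair was at 3.35 and 2.77. Wnt6 had the largest fold change, -1.01 with an SE of 0.50, at 45 reads or fewer in any library, and was lower in the aged library of each replicate number. It was -0.63 without the first aged library, where Dkk3 had -0.98, and -1.50 without the third.

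The other highly expressed members overlapped between ages. Wnt5a was at 4.61, 4.52 and 4.89 log2 RPM in young adult and at 4.88, 4.93 and 4.96 in aged cells, and Fzd5 at 5.49, 5.44 and 5.83 and at 5.44, 5.37 and 5.59. Of the coreceptors, Lrp6 was at 6.18, 6.04 and 5.99 and at 6.08, 6.14 and 6.11, and Lrp5 at 4.31, 4.41 and 4.42 and at 4.36, 4.56 and 4.40. Both coreceptors stayed within a narrow range. Lgr4 was at 2.88, 2.97 and 3.59 and at 2.74, 3.33 and 3.46, and Sfrp1 at 3.55, 3.47 and 3.59 and at 3.42, 3.73 and 3.65. Tcf7 was at 2.23, 2.5 and 2.86 and at 1.76, 2.41 and 2.42, Tcf7l2 at 3.52, 3.66 and 3.37 and at 3.4, 3.85 and 3.21, and Axin1 at 4.92, 5.10 and 5.04 and at 5.03, 5.24 and 5.01. For each of these genes at least 1 aged library lay within the young adult range or on the other side of it.

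Among 55 other pathway genes fixed in lists, 53 were in the table and 42 were tested. With either fit 0 of the 42 were called, and 29 were higher in aged cells, with a median log2 fold change of 0.04. The smallest p belonged to Wls, the carrier that brings Wnts to the cell surface. It was at 4.60, 4.78 and 5.12 log2 RPM in young adult and at 5.03, 5.37 and 5.33 in aged cells, with overlap, and its fold change was 0.41 with an SE of 0.15 (adjusted p with the block 0.0639). With the block Wls was called without replicate number 1 (adjusted p = 0.00204), 2 (0.00448) or 3 (0.0404) and with no filter (3.8e-05). In these fits limma took the error from the trend over all genes, not from the gene's own spread. Their adjusted p is therefore not comparable with the 0.0639 above. Tle4, a corepressor that TCF factors recruit, had a fold change of 0.24 with an SE of 0.10. For Ror2, a receptor of Wnt5a, it was 0.38 with an SE of 0.20 (0.25 without the third young adult library). Wls, Tle4 and Ror2 had the smallest p without the block, and next came Notum, lower in aged cells (-0.70 with an SE of 0.36). With the block Apcdd1 (0.51), Celsr1 (-0.41) and Notum had smaller p than Tle4 and Ror2.

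Between replicate numbers, Wnt pathway genes were called. Replicate numbers are shared by 1 young adult and 1 aged library. The F test of the number in the fit with age called 15 of the 33 genes, against 22.0% of all genes. The numbers were taken as pairs because these same values deviated together, so the calls are no separate support for the pairing. The replicates of an age were derived on different days, and whether a young adult and an aged library of 1 number share a day, a culture or a sequencing run was not found in the labels or in the methods read here. The 15 genes include 5 Frizzled receptors (Fzd1, Fzd5, Fzd7, Fzd9, Fzd10), 4 ligands (Wnt5b, Wnt6, Wnt7a, Wnt11), both Lgr4 and Lgr5, the antagonists Dkk3 and Sfrp4, and Tcf7 and Tcf7l2. Fzd5 (adjusted p = 0.0499) and Fzd7 (0.0430) were not called with edgeR, which called 13. The highest number was 3 for 9 of the 15, 1 for 3 and 2 for 3. Without replicate 3 the count was 6 of 33 (4.67% of all genes), without replicate 1 it was 12 (14.7%), and without replicate 2 it was 17 (41.8%). These fits took the error from the trend over all genes, so their counts are not comparable with the 15.

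**Figure D3:**
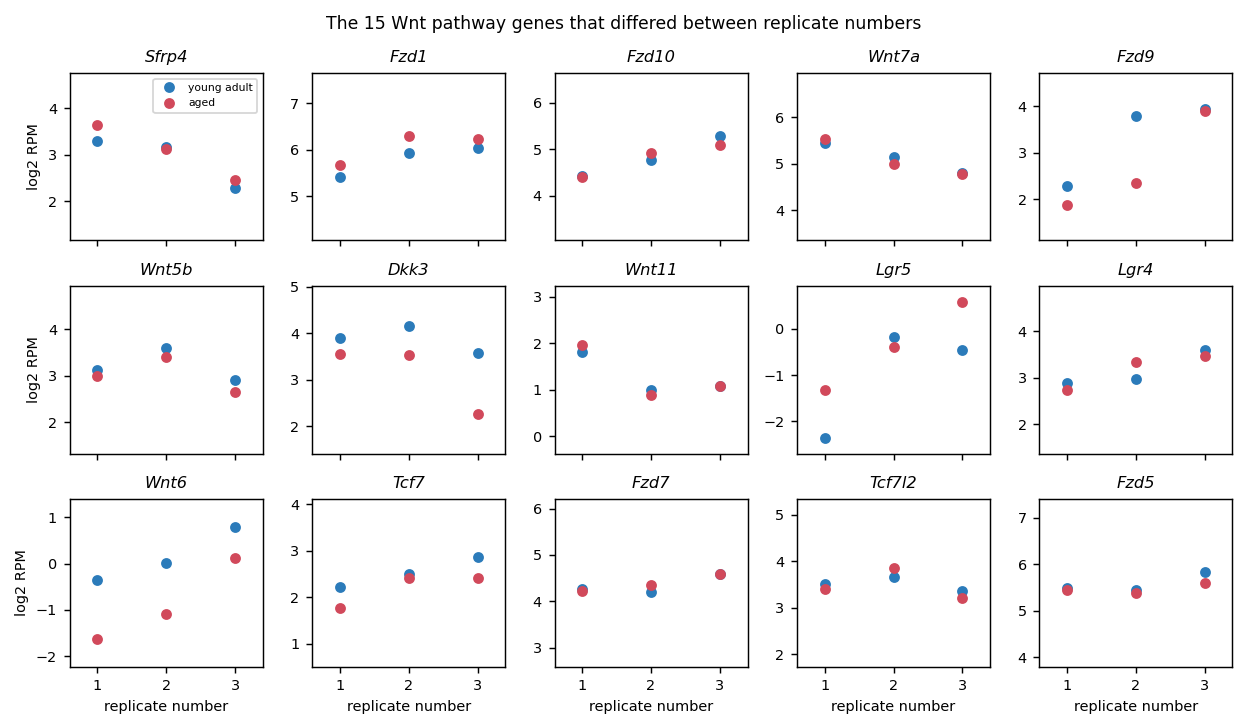
The log2 RPM of the 15 genes called for replicate number, in the C57BL/6JBabr libraries (blue young adult, red aged), all panels spanning the same number of log2 units. Fzd1, Fzd10 and Fzd9 are lowest at number 1 in both ages, and Sfrp4 and Wnt7a are lowest at number 3 in both ages.

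Sfrp4, Fzd10 and Wnt7a keep 1 order of the numbers in both ages. Sfrp4 was at 3.28, 3.15 and 2.27 log2 RPM at numbers 1 to 3 in young adult cells and at 3.63, 3.12 and 2.45 in aged cells (adjusted p = 0.000608). Fzd1 was at 5.41, 5.92 and 6.03 and at 5.67, 6.28 and 6.23 (adjusted p = 0.000631). For Sfrp4 both libraries of number 3 lie below all 4 others, and for Fzd1 both libraries of number 1 do. Fzd10 was at 4.42, 4.78 and 5.28 and at 4.40, 4.91 and 5.09 (adjusted p = 0.000839). Wnt7a was at 5.44, 5.15 and 4.81 and at 5.53, 5.00 and 4.77 (adjusted p = 0.000987), opposite in order to Fzd10. Fzd9, a receptor with known roles in the hippocampus, spanned 3.57-fold between the means of numbers 1 and 3 and Lgr5 spanned 3.74-fold.

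Against C57BL/6JBabr cells, the C57BL/10 derivations had more Wnt7b and Sfrp1 RNA. With age in the fit, limma called 7 of 34 genes for strain, against 29.7% of all 14828 genes, all 7 higher in C57BL/10 (18.2% of all genes higher, 11.5% lower), and 13 had an unadjusted p under 0.05 (43.2% of all genes). The median log2 difference of all genes was 0.17 on the deposited scale, so each value is given with that shift removed in brackets. Wnt7b differed by 0.54 (0.37), Sfrp1 by 0.71 (0.54), Fzd4 by 0.74 (0.57), Fzd6 by 0.81 (0.64), Fzd3 by 0.46 (0.29), Wnt5a by 0.38 (0.21) and Lrp6 by 0.25 (0.08). For Wnt7b the C57BL/10 libraries were at 7.75 and 7.90 log2 RPM, above all 6 others, and for Sfrp1, at 4.31 and 4.26, against 3.42 to 3.73. For Fzd4 they were at 4.01 and 3.63, against 2.68 to 3.24. With edgeR, whose scaling brings the median to -0.00642, 5 of 34 were called, Wnt7b, Sfrp1 and Fzd4 higher and Axin2 and Tcf7 lower, and over all genes 630 were called higher (4.25%) and 1942 lower (13.1%), where limma had 2697 and 1708. Without the aged C57BL/10 library 4 of the 34 were called (12.5% of all genes) and without the young adult one 2 (9.61%). Each C57BL/10 age is 1 derivation, and these animals had been kept in another facility, so that strain, facility and derivation cannot be told apart.

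Between the 2 C57BL/10 ages, with 1 library each, no test within the strain was made. Past 1.5-fold were 6 of the 33 genes, against 10.2% of all genes, 5 of them higher and 1 lower in the aged library (5.16% and 5.00% of all genes). Higher were Lgr5 (-1.06 and 0.14 log2 RPM, a difference of 1.2), Wnt2 (-0.52 and 0.38, 0.90), Sfrp2 (-0.18 and 0.70, 0.88), Tcf7l1 (0.77) and Fzd9 (0.59), and Dkk3 was lower (-0.72). Lgr5 and Wnt2 had at most 59 and 32 reads in any library. In C57BL/6JBabr the fold changes of Lgr5 (0.62), Wnt2 (0.42), Sfrp2 (0.15), Tcf7l1 (0.37) and Dkk3 (-0.76) have the same sign, and that of Fzd9 (-0.62) the opposite one, but those of Lgr5 and Sfrp2 turned their sign without 1 young adult library. Without 1 library the fold change of Fzd9 ran from -0.21 to -1.22 and that of Wnt2 from 0.25 to 0.72. The interaction of age and strain, tested over the 8 libraries with limma, called 0 of 34 genes, against 0.00674% of all genes, and 0 of the 34 had an unadjusted p under 0.05 (1.62% of all genes). That fit takes the lone C57BL/10 library of each age to vary as the C57BL/6JBabr libraries do.

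Most Wnt ligand promoter windows held both H3K4me3 and H3K27me3, and most Frizzled ones H3K4me3 alone. H3K4me3 marks active and poised promoters, H3K27me3 is the mark of Polycomb repression, and promoters with both are called bivalent. For each gene the 5000 bp window with the most H3K4me3 was used, and a mark was counted as present where its log2 RPM exceeded Input of the same age by at least 1. The files give 1 value per age, so nothing here was tested. Bulk values over 5000 bp do not show whether both marks lay in the same cells or on the same stretch of chromatin. In young adult cells 20 of the 48 promoters (41.7%) carried H3K4me3 alone, against 47.3% of all genes, and 23 (47.9%) carried both marks, against 10.9% of all genes. H3K27me3 alone was found at Dkk3, Wnt10a and Wnt8b (6.25%, against 6.02% of all genes), and neither mark at Wnt8a and Dkk4. The H3K27me3 class depends on the limit: at 1.5-fold over Input all 3 genes had both marks, and at a limit of 1.5 Dkk3 had neither mark and Sfrp5 entered.

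**Figure D4:**
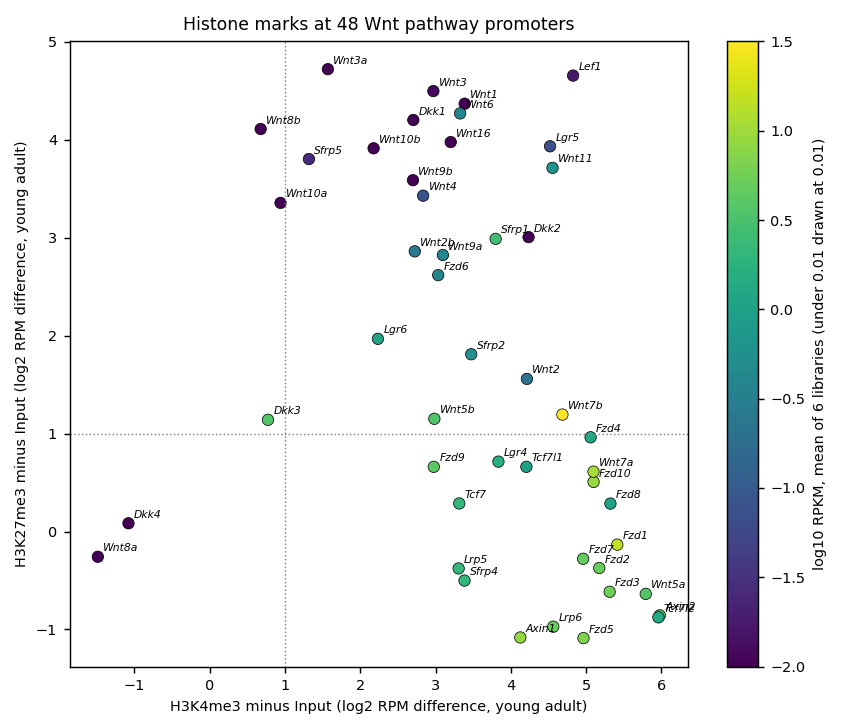
H3K4me3 and H3K27me3 of each of the 48 promoters in young adult cells, both as the log2 RPM difference to Input, coloured by log10 RPKM, with dotted lines at the limit of 1 for a mark. Frizzled genes other than Fzd6 sit low on the right, and the ligands without reads, other than Wnt8a, sit at the top.

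Role and mark went together. Both marks were found at 14 of the 19 Wnt ligands, at 1 of 10 Frizzled genes (Fzd6, the lowest of its family), at 3 of 4 Sfrp genes, at Dkk1 and Dkk2, at Lgr5 and Lgr6 and at Lef1. H3K4me3 alone was found at 9 Frizzled genes, both LRP coreceptors, both Axins, all 3 Tcf7 genes, Lgr4, Sfrp4, Wnt5a and Wnt7a. Of the genes with H3K4me3 alone 19 of 20 were at 1 RPKM or more (83.3% of all genes in that class), with Tcf7l1 just below. Of those with both marks 4 of 23 were (19.8% of all genes in that class): Wnt7b, Wnt5b, Sfrp1 and Lgr6. That count was 2 of 20 (14.4%) at a limit of 1.5 over Input, where Wnt7b and Wnt5b had H3K4me3 alone, and 9 of 31 (24.6%) at 1.5-fold over Input. Beside the median of 0.0781 RPKM in this group, Wnt7b at 31.9 stands apart, and its H3K27me3 exceeded Input by only 1.19.

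Single promoters show the levels of the marks side by side. Lef1 carried 5.93 log2 RPM of H3K4me3 and 5.76 of H3K27me3 in young adult cells with Input at 1.10, and Lgr5 5.48 and 4.90. At Wnt3 the values were 4.58 and 6.10, at Wnt1 4.61 and 5.59, and at Wnt3a 2.54 and 5.68. By contrast Axin2 had 6.73 of H3K4me3 and -0.10 of H3K27me3, and Wnt5a 6.91 and 0.48. The CpG-poor Wnt8b promoter printed above had 1.87 and 5.30.

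Of the 19 Wnt ligands 16 carried H3K27me3, and these include 4 pairs of neighbours. Wnt1 and Wnt10b start 11.7 kb apart on chromosome 15, Wnt3a and Wnt9a 16.2 kb apart and Wnt3 and Wnt9b 24.3 kb apart on chromosome 11, and Wnt6 and Wnt10a 19.6 kb apart on chromosome 1. Their H3K27me3 lay between 3.99 (Wnt9a) and 6.10 (Wnt3) log2 RPM, and 7 of the 8 promoters also carried H3K4me3, Wnt10a being the exception. Wnt6 and Wnt9a, 1 in each of a pair, were the 2 of the 8 with more than 0.1 RPKM.

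Between ages few of these promoters passed 1.5-fold in a mark. For H3K4me3, 1 of 46 genes with a log2 RPM above 1 in at least 1 age changed by at least 1.5-fold, against 0.343% of all genes, and it was Wnt8b, which fell from 1.87 to 1.19 log2 RPM (0.256% of all genes were lower and 0.0874% higher). The H3K4me3 of Wnt8b exceeded Input by 0.68 in young adult and 0.13 in aged cells, under the limit for a mark. With Input subtracted Wnt8b was no longer past 1.5-fold. Lrp6, Tcf7l1 and Wnt5b were then higher and Wnt3a lower (4 of 46, against 4.64% of all genes). The median difference over all genes above that level was 0.21 and over the 46 genes 0.16, and after quantile normalization the median of the 46 was -0.02. For H3K27me3, 0 of 37 genes changed, against 4.01% of all genes (1.92% higher, 2.09% lower). Among these 37, whose H3K27me3 was above the same level, the 3 largest differences were at Fzd2 (0.71 to 1.27 log2 RPM), Wnt7b (2.48 to 1.98) and Fzd8 (1.41 to 0.95). By the limit over Input, Fzd2 (-0.37 and 0.41) and Fzd8 (0.28 and -0.43) carried no H3K27me3 at either age. At 3 promoters a mark crossed the limit over Input: H3K27me3 of Wnt7b (1.19 over Input in young adult, 0.83 in aged cells) and of Tcf7l1 (0.66 and 1.09), and H3K4me3 of Wnt3a (1.57 and 0.96). At Wnt7b the other 2 windows kept both marks at both ages. Input moved at the other 2 genes. At Tcf7l1 it was 1.42 and 0.91 log2 RPM, while H3K27me3 itself was 2.08 and 2.00. At Wnt3a it was 0.97 and 1.29, while H3K4me3 was 2.54 and 2.26. Input was also lower in aged cells at Lrp6 (1.13 and 0.75) and Wnt5b (1.31 and 0.77). Before Input was subtracted, H3K4me3 rose by 0.24 at Lrp6, 0.23 at Tcf7l1 and 0.27 at Wnt5b.

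DNA methylation was low at the start of most of these genes, silent or expressed: 40 of 47 with enough calls were under 10% 5mC in young adult cells. The share of all genes under 10% was not computed. Medians of all genes with H3K4me3 alone or with both marks, given below, were low too. oxBS reads 5-methylcytosine (5mC), and BS reads it together with 5-hydroxymethylcytosine. The libraries held 13616283 to 30400033 calls, with 70.5% to 72.9% methylated. Within 500 bp of the start, the genes with H3K4me3 alone had a median of 0.312% 5mC in young adult and 0.538% in aged cells, and all genes of that class 0.709% and 0.694%. Those with both marks had 2.74% and 1.97%, and all genes of that class 3.39% and 3.53%. Dkk4 and Wnt8a, the genes with neither mark, were at 64.4% ± 13.4 and 60.9% ± 9.37 (SD, n = 3) in young adult cells, on as few as 12 and 10 calls in a library. Dkk3 was at 54.0% ± 8.09 in young adult and 54.3% ± 22.6 in aged cells, on as few as 11 calls in a library. It was the highest among the genes with 1 RPKM or more, followed by Tcf7 at 22.5% ± 9.21 in young adult cells.

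**Figure D5:**
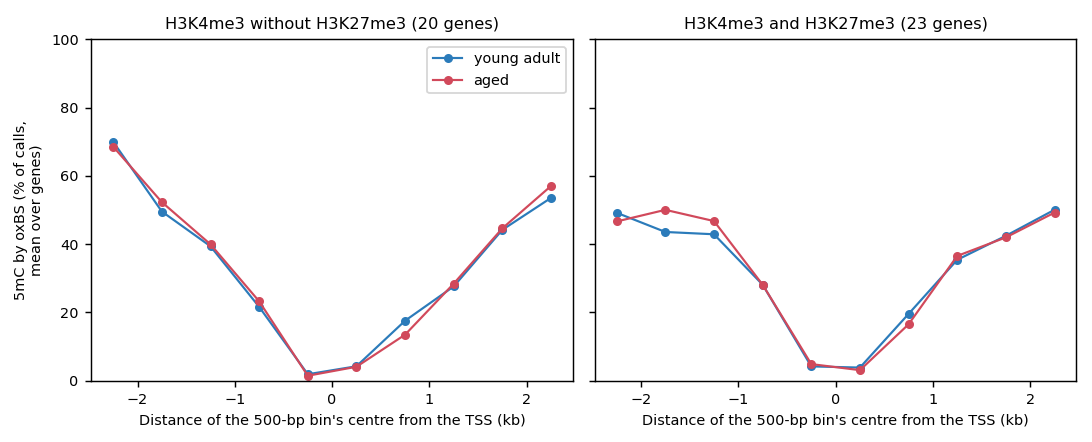
Mean 5mC by oxBS (percent of calls) over the genes in 500-bp bins by distance from the start, for the genes with H3K4me3 alone (left) and with both marks (right) that had enough calls in a bin (14 to 20 of 20 and 15 to 23 of 23), in young adult (blue) and aged (red) cells, 3 libraries summed for each age. Young adult levels fall from 70.0% and 49.2% in the outermost upstream bin to 1.84% and 4.15% in the bin just upstream of the start.

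No Wnt pathway gene was called for methylation between ages. In oxBS 0 of 48 promoter windows and 0 of 73 islands had an adjusted p under 0.05 by edgeR's quasi-likelihood test (0% of all 23796 windows and of all 14655 islands). In BS 0 of 48 windows and 0 of 86 islands were called (0% of all). Unadjusted, 1 and 3 of them were under 0.05 in oxBS, against 4.76% and 2.64% of all, and 3 and 4 in BS, against 4.47% and 3.08%. At CpG islands the paper reports regions that differ in methylation between these ages. It used a chi-squared test, not the test used here, and why the outcomes differ was not tested. The 3 smallest p in oxBS were in islands. The Fzd3 island (chr14:65261577-65263008) was at 0% in young adult and 1.38% ± 0.88 in aged cells, the Wnt11 island (chr7:98838570-98839491) at 0.397% ± 0.687 and 4.96% ± 1.51, and an island in Wnt5a (chr14:28511041-28511747) at 2.40% ± 0.476 and 17.1% ± 17.0, the last on as few as 14 calls in a library.

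In BS the smallest p belonged to a second Wnt5a island (chr14:28504451-28506995), at 3.44% ± 3.87 in young adult and 0.27% ± 0.24 in aged cells. The young adult mean rests on the second library, at 7.91%, while the other two were at 1.27% and 1.15%. The Lrp5 promoter window (chr19:3684056-3689056) was at 12.5%, 14.3% and 18.5% in young adult and at 29.8%, 17.4% and 28.9% in aged cells, with overlap. An island in Wnt10a (chr1:74800405-74801002) was at 0%, 0% and 5.56% in young adult and at 6.12%, 13% and 10.3% in aged cells by BS, whereas by oxBS its mean was 7.18% in young adult and 1.15% in aged cells. The assays thus differ in direction there, on 36 calls or more in a library by BS and 19 or more by oxBS.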

How the data were processed

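The authors deposited RNA values as log2 RPM per gene and library, ChIP values as log2 RPM in 5000 bp windows around each start with 1 value per age, and counts of methylated and unmethylated calls per CpG of GRCm38 for each BS and oxBS library. Submitters' processing notes name STAR 2.3.0, Bowtie2 2.2.5, Bismark 0.12.5 and Trim Galore, without roles. Whole reads were recovered from the log2 RPM (all values of 1 to 1000 reads whole within 0.02), where a gene without a read holds the value of 0.9 reads. RPKM used GENCODE exon lengths.

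Ages, replicate numbers and strains were compared with limma 3.58.1 (moderated test with a trend, Benjamini-Hochberg over all genes whose log2 RPM averaged -2 or more, threshold 0.05), and in alternatives with edgeR 4.0.16 and DESeq2 1.42.0. Tests are two-sided. Methylation calls were tested with edgeR on regions where no library had fewer than 10 calls. CpG islands (34545) were called from the genome sequence (200 bp windows, GC of at least 50%, observed over expected CpG of at least 0.6, length of at least 500 bp). Scripts were tested on simulated data. Same-numbered RNA libraries of the 2 ages deviated together over 14858 genes (correlations 0.659, 0.179 and 0.724), so the numbers were taken to pair them. Whether derivations of different ages were prepared together was not found in the sources used here.

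Described with values per library are genes with an unadjusted p under 0.05 without the block or with separate ages, the 3 highest of each role, those changed in a mark, those with the 3 smallest p for methylation, replicate number or strain, the largest C57BL/10 differences, and Dkk3, Lgr6, Wnt10a and Wnt7b, which the study's supplementary tables list. The genes, lists and tests were chosen with earlier results of these data known. The files' methylation percentages were not used. Age p-values without the block set the difference against the spread between derivations. Those with the block set it against what is left within the assumed pairs. The F test asks about the spread between replicate numbers itself. The edgeR and DESeq2 tests on counts also include counting error. Intervals from counts cover counting error only.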

Additional observations from a re-analysis of the deposited data

How the results depend on the processing

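Of the 14 main counts, those of methylation calls among the Wnt pathway genes (0) did not move under any alternative, including the replicate block, for which same-numbered methylation libraries did not deviate together over promoter windows (correlations -0.0138 to 0.0364). For age in RNA, leaving out each library kept the count at 0 and DESeq2 called 4 of all genes. The replicate block called 74, with 0 Wnt pathway genes. The further settings of the block, and the interaction of age and strain, were chosen after seeing the data. The block called 83 genes with edgeR and 78 with TMM scaling, with 0 Wnt pathway genes in each, the block with no filter called 345 genes and 4 Wnt pathway genes (Dkk3, Fzd1, Fzd9, Lgr6), and the block without 1 replicate number called 409, 446 and 73 genes (numbers 1, 2 and 3) and 1 to 4 Wnt pathway genes. With no filter and without 1 replicate number, the blocked limma fits took the error from the trend over all genes. Their calls are not comparable with those of the full block. Dkk3 was called without number 1 and without number 2, but not without number 3, whose aged library is the lowest. The cause was not tested.

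Counts for replicate number were 694 to 6214 of all genes and 6 to 17 Wnt pathway genes when a number was left out, and 13 with edgeR (without Fzd5 and Fzd7) and with a mean log2 RPM of 0 or more (without Lgr5 and Wnt6, then untested). The fits with a number left out again took the error from the trend over all genes. Counts for strain were 2572 with edgeR, and 1425 to 1851 genes and 2 to 4 Wnt pathway genes without a C57BL/10 library. At 2-fold, 1 Wnt pathway gene passed between the C57BL/10 ages (3.92% of all genes). For H3K4me3 with Input subtracted 4 were changed (Lrp6, Tcf7l1, Wnt5b, Wnt3a; 4.64% of all genes) and at 2-fold 0, and for H3K27me3 with Input subtracted 2 (Fzd2, Fzd8; 8.4%). The number of promoters with both marks was 20 at a limit of 1.5 over Input (7.78% of all genes) and 31 at 1.5-fold (13.9%). Under at least 1 alternative 17 of the 33 fold changes for age and 9 of the 34 for strain turned their sign, with 0 of the 7 called for strain among them, and the median for age over the same 33 genes ran from -0.01 to 0.08. Wls, outside the 48 genes, was called under the block with no filter and without each number, in fits with the error from the trend over all genes. Leaving out 1 library moved Lgr5 from -0.063 (without the first young adult library) to 1.09, and Sfrp2 from -0.0092 (without the third) to 0.40. Depth limits the 13 genes with at most 3 reads in any library.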
